A study of Rattus norvegicus with 8 samples.

Results

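The protein kinase C isoforms described here are 5 of the 4736 named genes on the array, Prkca, Prkcb, Prkcd, Prkce and Prkcz. Their members were all probe sets that the platform's probe-to-gene table assigns to 1 of these symbols, which gave 12 of the 8799 probe sets on the array. Prkca had 1 probe set, Prkcb 3, Prkcd 2, Prkce 4 and Prkcz 2. All 12 passed the filter on dim values and were among the 7770 probe sets tested, although 2 of them, the one of Prkca and one of Prkcz, lay above the floor on only 4 of the 8 arrays. This floor, an intensity of 9.2, is the level below which the lowest 20% of the values lay, and dimmer readings were raised to it.

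Total RNA of whole rat brain was measured on 8 oligonucleotide arrays, 1 per sample. The rats of all 3 groups were intubated and all received the volatile anaesthetic isoflurane. The 3 control samples came from animals exposed for 3 min and then at once perfused with cold saline. The exposed groups received 2% isoflurane, for 1 hr (2 samples) or for 2 hr (3 samples). The controls therefore carry a brief exposure, and perfusion is mentioned for them alone, so that any effect of it cannot be told apart from that of the longer exposure. The labels used here state no strain, sex or age. The labels name no animal numbers, so the p-values measure the spread between these samples, which may be technical in part. In RNA of a whole brain, fewer cells of a type and less RNA per cell cannot be told apart.

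Protein kinase C enzymes are serine/threonine kinases that carry the signal of receptors coupled to phospholipase C. The lipase splits a membrane phospholipid into inositol trisphosphate, which releases calcium, and diacylglycerol, which recruits the kinase to the membrane. The classical isoforms, among them alpha (Prkca) and beta (Prkcb), need both calcium and diacylglycerol. A second class, among them delta (Prkcd) and epsilon (Prkce), responds to diacylglycerol without calcium, and the atypical isoform zeta (Prkcz) responds to neither. In brain the beta isoform is rich in forebrain neurons, delta in thalamic and septal neurons and epsilon in nerve endings. The Prkcz gene also gives rise to a shortened, constantly active kinase of neurons, PKM zeta. Epsilon is known for its part in the protection that volatile anaesthetics give to heart and brain.

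The intensities of different probe sets depend on their probes, so no isoform is ranked above another here, and levels are compared between arrays for 1 probe set at a time. The 8 arrays had trimmed mean intensities of 150.2 to 150.3. Readings of the arrays as a whole ran across the groups. The array's control for 5S ribosomal RNA gave 12.9 to 23.7 on control replicates 1 and 2 and 2 hr replicate 1, and 70.4 to 141.7 on the other 5 arrays. The highest intensity was 23009 to 37712 on control replicate 3, 1 hr replicate 1 and 2 hr replicate 3, and 3504 to 12445 on the other 5. No 1 hr array had a low 5S reading. All 11 neuron markers found on the array of 15 listed lay above the floor on all 8 arrays.

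Over all members, 0 of 12 probe sets passed limma's test (adjusted p under 0.05) in any of the 4 comparisons, against 0% of all probe sets in each. At an unadjusted p under 0.05 there was 1 of 12 members for 1 hr against control, where 2.69% of all probe sets were below that value. There were 0 of 12 for 2 hr against control (1.76% of all), for the mean of both exposures against control (2.23%) and for 2 hr against 1 hr (2.78%). After 2 hr 5 of the 12 probe sets read above and 7 below their control mean, at a median log2 change of -0.01 beside 0.02 over all probe sets. After 1 hr 7 read above and 5 below it, at a median of 0.08 beside 0.05. Most members thus lay close to their control level, and the widest differences were those of Prkcb at 1 hr and of the dim Prkcz probe set. The comparisons with control share the same 3 control arrays.

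**Figure D1:**
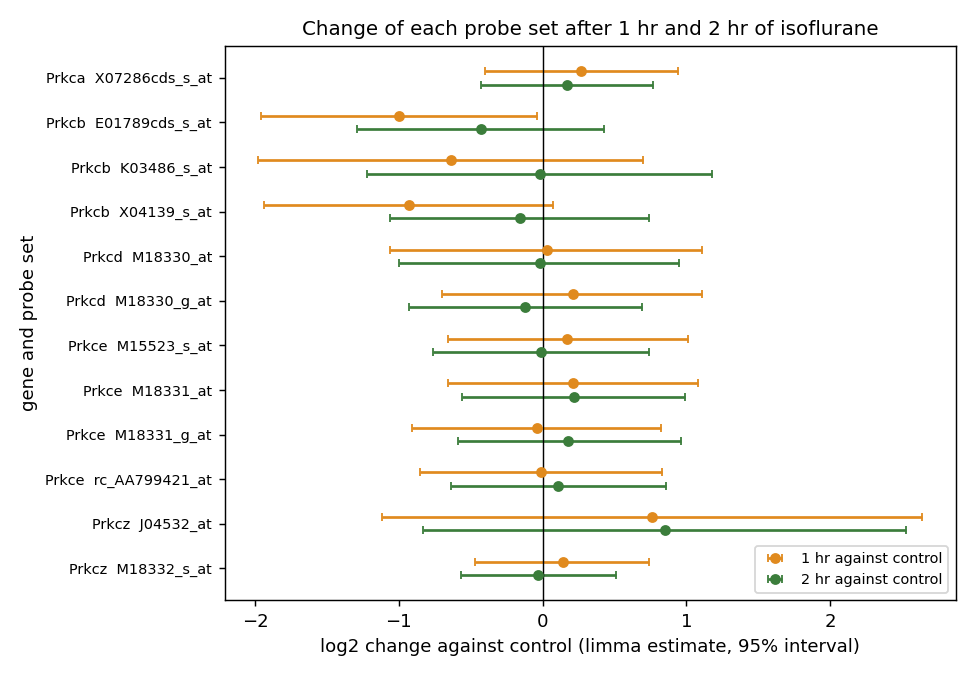
Log2 change against control (x axis, limma estimate with its 95% interval) for each of the 12 probe sets (y axis) after 1 hr and after 2 hr. All intervals except that of Prkcb E01789cds_s_at at 1 hr, from -1.96 to -0.04, include 0.

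Prkcb, the classical calcium-dependent beta isoform, had its lowest group mean at 1 hr on all 3 of its probe sets, and no difference passed the test. On X04139_s_at the control arrays read 1028.4, 1586.7 and 605.6, the 1 hr arrays 519.2 and 524.3, and the 2 hr arrays 1338.4, 718.4 and 740.4. Both 1 hr arrays lay below all controls and below all 2 hr arrays, and the controls and the 2 hr arrays overlapped. The mean log2 intensity was 9.96 ± 0.70 (SD, n = 3) in controls, 9.03 ± 0.01 (SD, n = 2) at 1 hr and 9.80 ± 0.51 (SD, n = 3) at 2 hr. The 1 hr level was 1.91-fold lower than control, a log2 change of -0.93 (SE 0.45, 95% interval -1.94 to 0.07), which did not pass limma's test (unadjusted p = 0.0656, adjusted p = 1). The 2 hr level was 1.71-fold above the 1 hr level, with an interval of 0.852 to 3.44 and an adjusted p of 1 in limma.

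E01789cds_s_at, the second Prkcb probe set, read 469.5, 559.9 and 319.9 in controls, 162.1 and 296.2 at 1 hr, and 467.2, 357.7 and 204.8 at 2 hr. Here too both 1 hr arrays lay below all controls, while 2 hr replicate 3 lay between the 1 hr arrays. The mean log2 intensity was 8.78 ± 0.41 (SD, n = 3) in controls, 7.78 ± 0.61 (SD, n = 2) at 1 hr and 8.34 ± 0.61 (SD, n = 3) at 2 hr. The 1 hr level was 2-fold lower than control (SE 0.43 on the log2 scale), with an unadjusted p of 0.0428 in limma, which no other member matched, and an adjusted p of 1. For 2 hr the change was -0.43, with an interval of -1.29 to 0.43.

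K03486_s_at, the third, showed overlapping groups throughout. Its controls read 281.3, 495.2 and 156.8, its 1 hr arrays 106.1 and 301.9, and its 2 hr arrays 454.7, 258.4 and 177.8. One 1 hr array was the lowest of all 8 and the other lay above 2 of the controls. The log2 change was -0.64 (SE 0.60) at 1 hr and -0.02 (SE 0.53) at 2 hr, and neither passed (adjusted p = 1 in limma). Groups that did not overlap in the lower direction were thus seen for 2 of 12 members at 1 hr, both of them probe sets of Prkcb, against 5.11% of all probe sets. For 2 hr against 1 hr the count was 1 of 12, higher at 2 hr, against 5.98%. It was 0 of 12 for 2 hr against control, where 5.44% of all probe sets did not overlap in either direction, and 0 of 12 for both exposed groups against control (1.93%).

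The 3 Prkcb probe sets varied together over the arrays. Pearson's r over the 8 arrays was 0.88 between E01789cds_s_at and K03486_s_at (Spearman's rho 0.76), 0.81 between E01789cds_s_at and X04139_s_at (rho 0.83) and 0.80 between K03486_s_at and X04139_s_at (rho 0.74). The exact permutation p values, two-sided and adjusted over the 11 pairs of probe sets of 1 gene, were 0.0271, 0.0412 and 0.0412 for r and 0.101, 0.0564 and 0.101 for rho. Without the 2 arrays farthest from the median, 1 hr replicate 1 and control replicate 2, r was 0.68, 0.65 and 0.62. The readings may share probes, since the array design marks all 3 as sets that can match several transcripts.

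**Figure D2:**
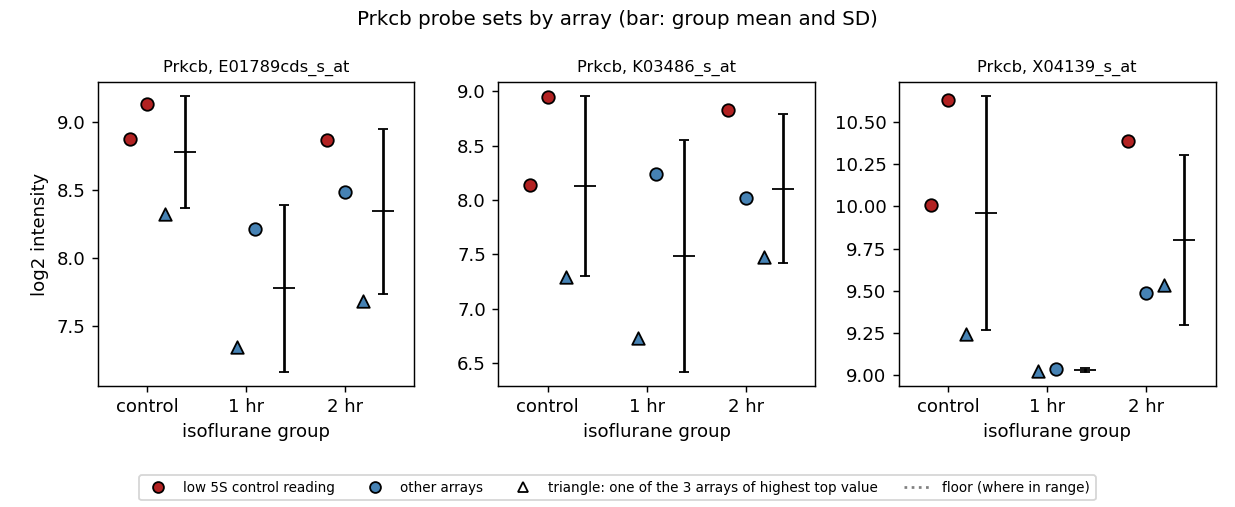
Log2 intensity (y axis) of the 3 Prkcb probe sets on each array, by isoflurane group (x axis), with red for the 3 arrays of low 5S reading, triangles for the 3 arrays of highest top value, and bars for the group mean and SD. On X04139_s_at both 1 hr arrays, at 519.2 and 524.3 on the linear scale, lie below all others, and the 3 red points are the highest of each panel except on K03486_s_at.

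The Prkcb readings also ran with the 5S reading of the array. On X04139_s_at the 3 arrays of low 5S reading gave 1028.4, 1586.7 and 1338.4, and the other 5 gave 519.2 to 740.4. The mean log2 difference between these sets of arrays was 1.08 on X04139_s_at, 0.95 on E01789cds_s_at and 1.09 on K03486_s_at. The sets of arrays did not overlap for 2 of the 12 members, X04139_s_at and E01789cds_s_at, both higher on the arrays of low 5S reading, against 4.92% of all probe sets in that direction. With the 5S reading as a block the 1 hr change was -0.28 for X04139_s_at, -0.51 for E01789cds_s_at and 0.14 for K03486_s_at (limma, adjusted p = 0.932, 0.867 and 0.989). Other blocks did not shrink it alike. With the arrays of highest top value as a block it was -0.84, -0.86 and -0.44 in the same order. With the replicate number as a block it was -1.18, -1.28 and -1.01 (limma, adjusted p = 0.999 for each value of these 2 blocks). Within the 5 arrays of higher 5S reading, which hold 1 control, the 1 hr differences were -0.22, -0.55 and 0.19 in the same order, and the 2 hr differences 0.27, -0.24 and 0.45. Both 1 hr arrays fall on the same side of this split, and its part in the Prkcb result was not tested further.

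By summed intensity, neuron markers were also higher on the arrays of low 5S reading, and so were oligodendrocyte markers. The summed intensity of 8 oligodendrocyte markers was 11340 to 12351 on those arrays and 6143 to 10473 on the other 5. That of the 11 neuron markers was 13176 to 15148 and 7667 to 12040 in the same order. By mean log2 intensity the neuron markers kept this split, at 9.04 to 9.30 and 7.86 to 8.90. The oligodendrocyte markers overlapped on that scale, at 9.44 to 9.71 and 9.07 to 9.57. Among the other 5 arrays, control replicate 3 had the lowest mean log2 intensity of the neuron markers (7.86), with a Prkcb mean of 8.29. The lowest Prkcb mean, 7.70, was that of 1 hr replicate 1, with a neuron mean of 8.71. By group the neuron sum was 7667 to 15148 in controls, 10886 to 11518 at 1 hr and 9315 to 13608 at 2 hr, so the 1 hr arrays lay inside the control range. None of the 11 neuron markers was at the floor on all arrays. Set against the mean of these markers on the same array, the mean log2 intensity of the 3 Prkcb probe sets was lower by 1.01 and 0.40 on the 1 hr arrays. It differed by -0.03, 0.34 and 0.43 on the control arrays and by 0.06, 0.06 and -0.46 on the 2 hr arrays. On this scale, chosen after the values were seen and given with no test, both 1 hr arrays lay below all controls, and 2 hr replicate 3 lay between the 1 hr arrays. Markers of cortical, hippocampal and striatal neurons, 10 on the array of 12 listed, summed to 7868 to 9991 in controls, 6002 to 8356 at 1 hr and 5905 to 8395 at 2 hr. Their mean log2 intensity, in which each marker counts alike, was 7.08, 7.47 and 8.01 in controls, 7.64 and 7.37 at 1 hr, and 7.32, 8.28 and 7.28 at 2 hr, with overlapping groups. On the arrays of low 5S reading it was 7.08, 7.47 and 7.32. On the other 5 it was 7.28 to 8.28, so these markers were not higher at low 5S on this scale. Markers of tissue beside the brain also varied. The summed intensity of 8 pituitary markers was 265 to 278 in controls, 316 and 536 at 1 hr and 242 to 928 at 2 hr. Both 1 hr arrays thus lay above all controls. At 1 hr 7 of the 8 markers read higher, beside 2406 of 4367 genes, at a median log2 change of 0.25 beside 0.04. None passed limma's test (adjusted p = 1), and only 4 of the 8 lay above the floor on all 8 arrays. The 7 choroid plexus markers on the array of 10 listed summed to 886 to 1288 in controls, to 1191 and 4595 at 1 hr and to 1020 to 1995 at 2 hr. The part of these markers in the lower 1 hr reading of Prkcb was not tested.

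**Figure D3:**
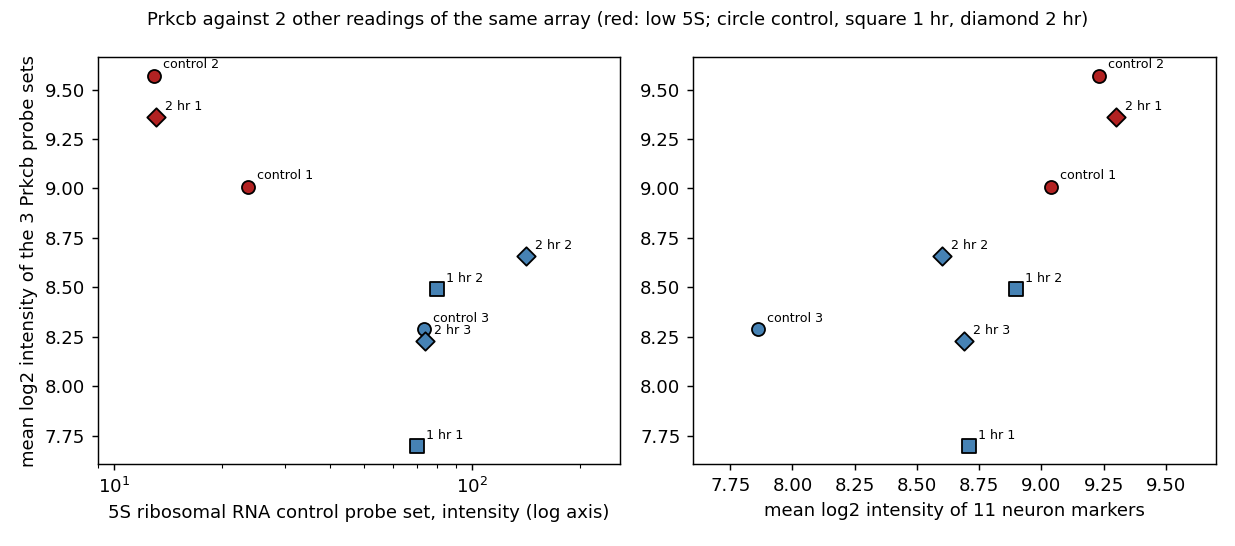
Mean log2 intensity of the 3 Prkcb probe sets (y axis) on each array against the intensity of the 5S control probe set (left, log axis) and the mean log2 intensity of 11 neuron markers (right). The 3 arrays of low 5S reading have Prkcb means of 9.01 to 9.57, above the 7.70 to 8.66 of the other 5, and 1 hr replicate 1 is the lowest.

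Prkca, the other classical isoform on the array, read close to the floor. Its X07286cds_s_at gave 4.3, 10.5 and 9.0 in controls, 6.1 and 14.6 at 1 hr, and 3.2, 10.1 and 13.6 at 2 hr. Only 4 arrays exceeded the floor of 9.2, 1 control, 1 of the 1 hr arrays and 2 of the 2 hr arrays. The log2 changes of 0.27 (SE 0.30) at 1 hr and 0.17 (SE 0.27) at 2 hr rest on readings at or near the floor and did not pass (adjusted p = 1 in limma). With the floor at the 5th percentile they were 0.35 and 0.04, and without 1 hr replicate 2 the 1 hr change was -0.06. The level of Prkca was therefore not measured well enough on these arrays to show a difference between the groups.

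Prkcd, the calcium-independent delta isoform, showed no difference between the groups beyond the spread between arrays on either probe set. M18330_g_at read 98.1, 141.8 and 142.0 in controls, 208.3 and 101.0 at 1 hr, and 142.3, 128.0 and 84.6 at 2 hr. The highest array was 1 hr replicate 1 and the lowest 2 hr replicate 3, and the groups overlapped. The mean log2 intensity was 6.97 ± 0.31 (SD, n = 3) in controls, 7.18 ± 0.74 (SD, n = 2) at 1 hr and 6.85 ± 0.40 (SD, n = 3) at 2 hr. The change was 0.21 (SE 0.40) at 1 hr and -0.12 (SE 0.36) at 2 hr. The interval at 2 hr ran from 0.525-fold to 1.61-fold of control.

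M18330_at, named for the same sequence entry, was dimmer, at 58.8, 50.5 and 29.9 in controls, 47.9 and 43.3 at 1 hr, and 49.2, 56.2 and 30.5 at 2 hr. The lowest arrays were control replicate 3 and 2 hr replicate 3, both among the 3 arrays of highest top value. Its changes were 0.03 (SE 0.48) at 1 hr and -0.02 (SE 0.43) at 2 hr. The readings of both Prkcd probe sets did not follow each other over the 8 arrays (r = 0.21, exact permutation p = 0.609, adjusted p = 0.67; rho = -0.10, exact permutation p = 0.84, adjusted p = 0.924), and without control replicate 3 and 2 hr replicate 3 r was -0.22. Of the 9 thalamic neuron markers listed only 3 were on the array, with a summed intensity of 353 to 560 in controls, 422 to 784 at 1 hr and 392 to 504 at 2 hr.

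Prkce, the calcium-independent epsilon isoform, had the most probe sets, and none of the 4 differed beyond the spread between arrays. M18331_g_at read 381.8, 279.7 and 409.0 in controls, 315.9 and 369.8 at 1 hr, and 276.4, 347.1 and 665.2 at 2 hr. One array, 2 hr replicate 3, stood above the rest, and the other 2 hr arrays each lay below at least 2 of the 3 controls. The mean log2 intensity was 8.46 ± 0.29 (SD, n = 3) in controls, 8.42 ± 0.16 (SD, n = 2) at 1 hr and 8.64 ± 0.66 (SD, n = 3) at 2 hr. The 2 hr change was 0.18 (SE 0.35), and without 2 hr replicate 3 it was -0.19.

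The expressed sequence tag probe set rc_AA799421_at read 303.8, 202.8 and 411.6 in controls, 247.6 and 344.0 at 1 hr, and 232.3, 339.9 and 400.0 at 2 hr. The groups overlapped closely, with changes of -0.01 (SE 0.37) at 1 hr and 0.11 (SE 0.33) at 2 hr. M15523_s_at read 255.9, 142.1 and 123.2 in controls, 197.0 and 175.5 at 1 hr, and 141.4, 143.2 and 217.4 at 2 hr. M18331_at read 163.4, 77.2 and 81.0 in controls, 122.6 and 110.6 at 1 hr, and 101.8, 117.8 and 134.4 at 2 hr. On both of these control replicate 1 was the highest of the 8 arrays. M15523_s_at changed by 0.17 (SE 0.37) at 1 hr and -0.01 (SE 0.33) at 2 hr, and M18331_at by 0.21 (SE 0.39) and 0.22 (SE 0.35). Without control replicate 1 the 2 hr values were 0.31 and 0.57.

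The 4 Prkce probe sets fell into pairs. M15523_s_at and M18331_at varied together (r = 0.88, exact permutation p = 0.00288, adjusted p = 0.0271; rho = 0.90, exact permutation p = 0.00456, adjusted p = 0.0398), as did M18331_g_at and rc_AA799421_at (r = 0.80, exact permutation p = 0.00739, adjusted p = 0.0271; rho = 0.88, exact permutation p = 0.00724, adjusted p = 0.0398). Without the 2 most distant arrays r was 0.71 and 0.93. Between the pairs r ran from 0.10 to 0.44, with adjusted exact permutation p of 0.443 to 0.807 for r and 0.42 to 0.935 for rho. M18331_at and M18331_g_at, which carry the name of 1 sequence entry, were not paired with each other (r = 0.41). Limma's interval for 2 hr against control ran from 0.591-fold to 1.67-fold for M15523_s_at and from 0.68-fold to 1.99-fold for M18331_at. It ran from 0.663-fold to 1.94-fold for M18331_g_at and from 0.64-fold to 1.81-fold for rc_AA799421_at. For each probe set, changes inside its own interval cannot be told from none.

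**Figure D4:**
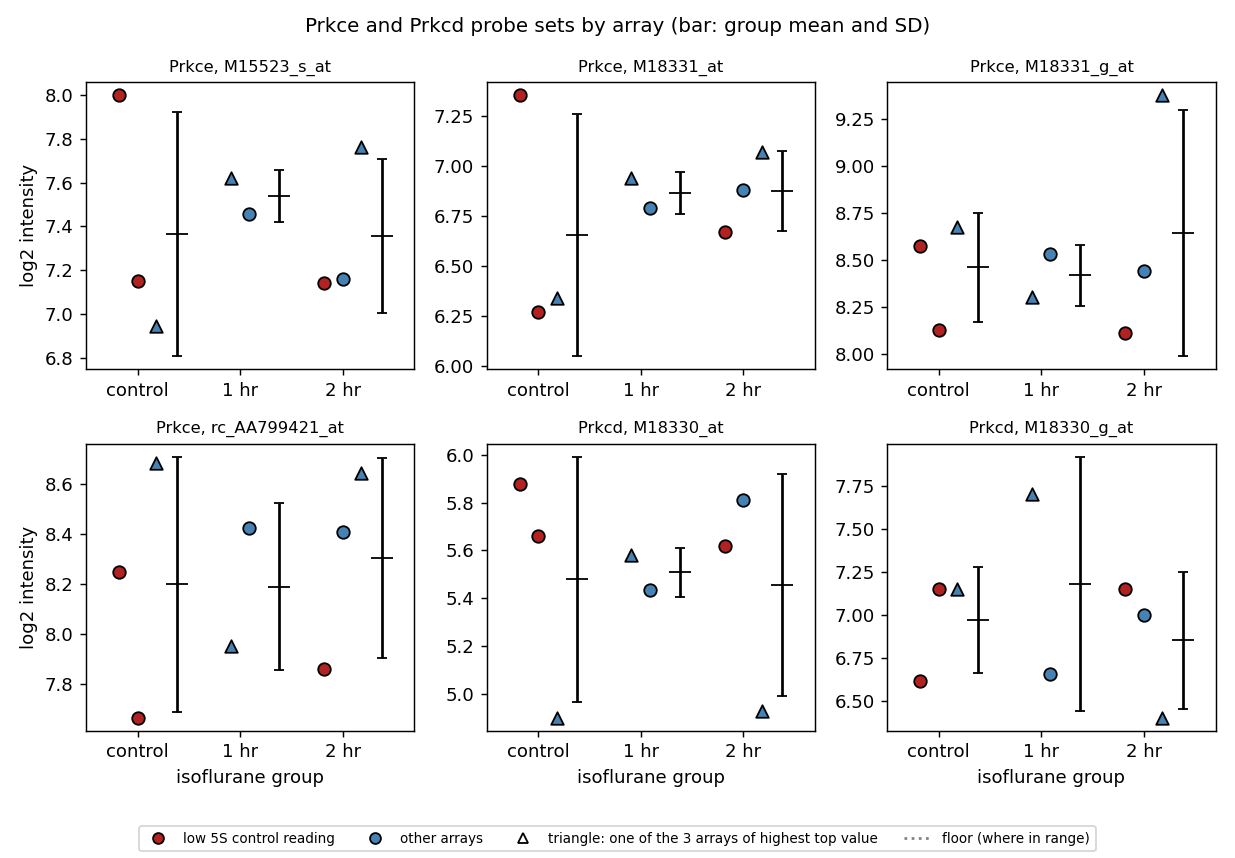
Log2 intensity (y axis, its range set per panel) of the 4 Prkce and 2 Prkcd probe sets on each array, by isoflurane group (x axis), with bars for the group mean and SD. Control replicate 1, the first point of each panel, is the highest array on M15523_s_at (255.9) and M18331_at (163.4), and 2 hr replicate 3, the last point, on M18331_g_at (665.2).

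Prkcz, the atypical zeta isoform, gave the steadiest reading of the family. M18332_s_at read 472.5, 438.7 and 372.4 in controls, 406.2 and 538.5 at 1 hr, and 449.9, 414.2 and 388.7 at 2 hr. The highest array exceeded the lowest by 1.45-fold, and the SD over all 8 arrays, 0.17 on the log2 scale, was as low or lower in only 2.86% of the probe sets tested. The mean log2 intensity was 8.73 ± 0.18 (SD, n = 3) in controls, 8.87 ± 0.29 (SD, n = 2) at 1 hr and 8.70 ± 0.11 (SD, n = 3) at 2 hr. The change was 0.14 (SE 0.27) at 1 hr and -0.03 (SE 0.24) at 2 hr, and the 2 hr interval ran from 0.673-fold to 1.42-fold of control. The 3 arrays of highest top value read 372.4, 406.2 and 388.7, below the 414.2 to 538.5 of the other 5. The same was seen for K03486_s_at of Prkcb, so that 2 of 12 members were lower on those 3 arrays without overlap, against 6.95% of all probe sets.

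J04532_at, the other Prkcz probe set, was dim and uneven. RefSeq's gene table lists names of the adaptor protein 14-3-3 zeta among the synonyms of Prkcz, and which transcript these probes match was not settled here. It read 7.9, 23.5 and 7.3 in controls, 6.7 and 49.1 at 1 hr, and 31.2, 40.4 and 6.2 at 2 hr. The 4 arrays at or below the floor were control replicate 1 and the 3 arrays of highest top value, and each group held at least 1 of them. The SD over the 8 arrays, 1.07, was as high or higher than that of 96.3% of the probe sets tested. Its log2 changes of 0.76 (SE 0.84) at 1 hr and 0.85 (SE 0.75) at 2 hr depend on single arrays and on the floor, with an interval at 2 hr of 0.562-fold to 5.78-fold, and did not pass (adjusted p = 1 in limma). The 1 hr change was -0.45 without 1 hr replicate 2 and 2.01 without 1 hr replicate 1. The 2 hr change was 0.43 without 2 hr replicate 2 and 1.30 without control replicate 2, and higher still without 2 hr replicate 3. A higher floor, at the 40th percentile, reduced the changes to 0.41 at 1 hr and 0.23 at 2 hr. Its r with M18332_s_at was 0.60 (exact permutation p = 0.113, adjusted p = 0.207; rho = 0.60, exact permutation p = 0.126, adjusted p = 0.231), and without 1 hr replicate 2 and 2 hr replicate 2 it was 0.48.

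**Figure D5:**
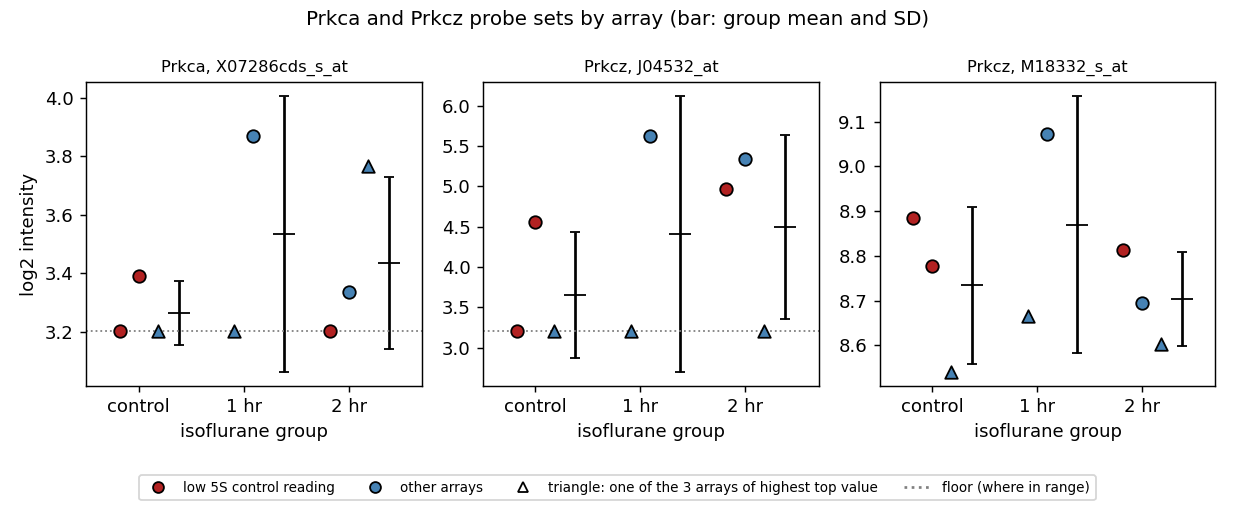
Log2 intensity after the floor (y axis, its range set per panel) of the Prkca and the 2 Prkcz probe sets on each array, by isoflurane group (x axis), with the floor as a dotted line and bars for the group mean and SD. Prkca and J04532_at lie above the floor on 4 arrays each, whereas M18332_s_at lies between 372.4 and 538.5 on the linear scale.

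The order of the group means was 1 hr below 2 hr below control for all 3 Prkcb probe sets. It was 2 hr below control below 1 hr for both Prkcd probe sets, for M15523_s_at of Prkce and for M18332_s_at of Prkcz. No neighbours in these orders differed beyond the spread between arrays in limma's test. The mean of both exposures against control gave changes of -0.72, -0.33 and -0.55 for E01789cds_s_at, K03486_s_at and X04139_s_at of Prkcb, and of 0.00 to 0.80 in size for the other 9 (smallest adjusted p among members 0.999).

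Other genes of the pathway were read from lists of names, with the brightest probe set for each gene, and 0 of them passed limma's test in any comparison. Of 10 other kinases of the family and its relatives 2 were tested. Prkch, the eta isoform, related to delta and epsilon, read 45.0, 63.5 and 107.7 in controls, 132.1 and 83.5 at 1 hr, and 54.6, 85.5 and 99.0 at 2 hr, with overlapping groups and a change of 0.64 (SE 0.47) at 1 hr. The third classical isoform, gamma, has no probe set in the probe-to-gene table.

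Upstream, 13 of 19 listed Gq family, phospholipase C and inositol trisphosphate receptor genes were tested. Gnaq, Gna11 and Gna14 of the Gq family were among those with no probe set of 1 symbol. Of the 13 tested, 6 read higher and 7 lower at 2 hr, with a median log2 change of -0.04 beside 0.02 over 4367 genes. The smallest unadjusted p belonged to Plcd1, a calcium-sensitive phospholipase C, at 1.05 (SE 0.52), and to Plcb2, a G protein-driven one, at -0.89 (SE 0.46), and neither passed (limma, adjusted p = 1). Plcd1 was dim, at 28.4, 13.4 and 5.6 in controls and 29.2, 42.2 and 25.2 at 2 hr. Control replicate 3 thus lay below the floor of 9.2, and the change depends in part on it. At 1 hr 7 of the 13 were higher and 6 lower, with a median of 0.06 beside 0.04. The range at 1 hr was from -0.93 for Plcb1 to 1.25 for Itpr2, both named after their values were seen. In limma 1 of the 13 had an unadjusted p under 0.05 at 1 hr, beside 114 of the 4367 genes. Of 5 diacylglycerol kinases, which remove the lipid activator, 4 read higher and 1 lower at 2 hr, with a median of 0.26. Dgkz read 709.8, 636.4 and 169.1 in controls against 688.6, 768.5 and 484.2 at 2 hr, a change of 0.58 (SE 0.51), with control replicate 3 the lowest array by far. Dgkb was the one that read lower, at -0.55 (SE 0.70). At 1 hr 3 of the 5 were higher and 2 lower, with a median of 0.13.

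Of 6 other diacylglycerol-binding proteins 4 read higher and 2 lower at 2 hr, with a median of 0.15, and as many in each direction at 1 hr, with a median of 0.09. Unc13b and Unc13c, which prime synaptic vesicles for release, read 0.47 (SE 0.44) and 0.38 (SE 0.52). Of 15 anchors, binding partners and the activating kinase of protein kinase C 4 read higher and 11 lower at 2 hr, with a median of -0.10. At 1 hr 7 of them were higher and 8 lower, with a median of -0.02 and a range from -1.17 for Pdpk1, the activating kinase, to 0.94 for Fez2, both named after their values were seen. Sqstm1, a scaffold of the atypical isoforms, read -0.28 (SE 0.31) and Ywhae, a 14-3-3 adaptor, 0.27 (SE 0.41). Of 16 known substrates 10 read higher and 6 lower at 2 hr, with a median of 0.20. At 1 hr 9 were higher and 7 lower, with a median of 0.09, and over both exposures 8 were higher and 8 lower, with a median of 0.00. Vim, the intermediate filament protein vimentin, read 310.6, 403.2 and 118.3 in controls and 469.4, 641.1 and 309.6 at 2 hr, a change of 0.88 (SE 0.46) with overlapping groups. Slc6a4, the serotonin transporter, read -0.39 (SE 0.39). None of these values passed limma's test (adjusted p = 1).

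The genes whose readings ran most like those of a member over the 8 arrays are given as a description, out of 4362 searched. For Prkcb (X04139_s_at) they were Gpc6, a cell surface glypican (r = 0.967, rho = 0.98) that read 2.7 to 21.6 and lay below the floor on control replicate 3 and both 1 hr arrays, and Cacna1b, the pore subunit of the N-type calcium channel (r = 0.952, rho = 0.88). Cacna1b read 193.7, 325.4 and 113.0 in controls, 140.3 and 114.2 at 1 hr, and 257.3, 170.0 and 142.4 at 2 hr, highest on the same 3 arrays as Prkcb, those of low 5S reading. For Prkcd (M18330_g_at) they were Lad1 (r = 0.963), dim at 4.7 to 43.8, and Prkar2a, a regulatory subunit of protein kinase A (r = 0.951). For Prkcz (M18332_s_at) they were Erbb3, a neuregulin receptor (r = 0.944), and Ttr, the choroid plexus transport protein (r = 0.878, rho = 0.71), which read 3408.9 on 1 hr replicate 2 and 81.4 to 320.5 on the other arrays. For Prkce (M18331_g_at) they were Cela1 and Tnni2 (r = 0.907 for both), and for Prkca Kcnb2 (r = 0.962) and Tat (r = 0.96), all of them at or near the floor on most arrays. The arrays share their array-wide readings, and such values are the highest of a long search.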

How the data were processed

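The file the authors deposited holds a linear intensity for each probe set on each array. How it was made is not stated in the labels. Arrays had nearly equal trimmed means (2% at each end), and the deposited intensities were used unscaled. After removal of 59 control probe sets, values under the 20th percentile were raised to it (9.2, log2 3.20) before log2 was taken. The 7770 of 8740 probe sets above the floor on at least 2 arrays were tested. The floor can shrink or enlarge the changes of dim probe sets. The number of arrays limits the precision.

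Names came from the probe-to-gene table of the platform: 7006 had 1 symbol, 308 several and 1426 none. Symbols of 6985 were updated through the gene number to RefSeq's GRCr8 table, for names only.

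Tests used limma 3.58.1 in R 4.3.3 (lmFit, contrasts.fit, eBayes with an intensity trend) on all 8 arrays with 1 mean per group, two-sided, with p-values adjusted by Benjamini-Hochberg over all 7770 and called under 0.05. The limma fit was tested on simulated data with independent noise, and the floor, filter and permutation tests were not. Agreement between probe sets of 1 gene used Pearson's r and Spearman's rho with exact permutation tests.

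Members and lists were chosen with earlier results of these data known. All member probe sets are named. From each pathway list up to 4 genes that passed are named, otherwise the 2 of smallest unadjusted p at 2 hr (1 such gene is not reported here), and as most alike the 2 genes of highest r per member. Alternatives were 2 normalizations, 2 floors, a pseudocount of 16, 2 filters, no trend, only the groups compared, 3 blocks, and arrays left out.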

Additional observations from a re-analysis of the deposited data

How the results depend on the processing

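For the members, 0 of 12 probe sets were called in each of the 4 comparisons under every alternative run, of those members that each alternative tested, and the smallest adjusted p of limma over all of them was 0.556, for E01789cds_s_at of Prkcb at 1 hr without 1 hr replicate 2. Over all probe sets 4 were called with no filter for 1 hr against control and 4 for 2 hr against 1 hr; the cause was not tested. Every other alternative gave 0. Of the 48 changes (12 probe sets in 4 comparisons), 11 kept their sign under all alternatives that gave a value and 37 turned under at least 1. The lower 1 hr reading of Prkcb kept its sign for X04139_s_at (-1.29 to -0.28) and E01789cds_s_at (-1.43 to -0.51), and ran from -1.40 to 0.14 for K03486_s_at, where it was 0.11 without 1 hr replicate 1. Without 1 hr replicate 1 E01789cds_s_at read -0.56. Without control replicate 2 the 1 hr change of X04139_s_at was -0.60, and its 2 hr change was 0.18. Whether equal replicate numbers pair the samples was not settled. Of 7 same-numbered pairs of arrays 4 had deviations correlated above 0.1 (range -0.33 to 0.29), and 2 of 8 arrays correlated best with their own number. These were deviations from the group mean, which mirror each other for the 2 arrays at 1 hr. Control replicate 1 thus gave -0.33 and 0.33 with them, so the check cannot decide. With the replicate block 0 members were called, and the 1 hr change was -1.18 for X04139_s_at and -1.28 for E01789cds_s_at. The strict filter, above the floor on at least 6 arrays, removed Prkca and J04532_at, and the floor at the 40th percentile removed Prkca, so these settings give no value for them. With dim probe sets near the floor, intensity over background limits what can be said of both.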
